A study of Mus musculus with 23 samples.

Results

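The genes described here make the connective tissue of the colon wall or mark the cells that build it. They are 40 genes for collagens, matrix glycoproteins, proteoglycans, cross-linking enzymes, fibroblast proteins, matrix metalloproteinases and the inhibitors of those enzymes. They were taken from a list of names and not ranked by their values, though the list was chosen with earlier results of these data known. Of the 40, 39 had a probe set of their own on the array, of 18820 genes in all. Fbn1, the gene for fibrillin-1 of microfibrils, had no probe set assigned to it alone and was not analysed here. Of the 39 genes, 38 averaged above 20 on the linear scale in 1 group of mice or more. Mmp3 was the exception, with means between 13.7 and 17.4. Some others were dim as well, with group means of 22 to 37 for Mmp10, 25 to 41 for Timp1, 28 to 33 for Lox and 29 to 58 for Mmp9.

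Male mice in 4 groups, aged 7 to 9 weeks at the start, were compared, in a study of whether PPARα, a nuclear receptor activated by fatty acids, takes part in the response of the colon to heme, the iron pigment of red meat. PPARα knockout (KO) mice of strain 129S4/SvJae-Pparatm1Gonz/J received the heme diet (KO heme, n = 6) or the control diet (KO control, n = 6). Wild-type (WT) mice of strain 129S1/SvImJ received the heme diet (WT heme, n = 6) or the control diet (WT control, n = 5, after the study removed 1 array for quality). Both diets were Westernized, with 40% of energy as fat and a low calcium content of 30 µmol per g, were given for 14 days, and differed in the 0.5 µmol of heme per g of the heme diet. The KO allele disrupts the ligand-binding domain and is carried on a different substrain of the same strain family, so that genotype and substrain cannot be told apart. RNA came from scraped colon mucosa of individual mice, each on 1 array, and values are log2 signals.

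Collagens are secreted by fibroblasts and related stromal cells, assembled outside the cell into fibrils or basement membrane networks, and held together by cross-linking enzymes, glycoproteins and small proteoglycans. Metalloproteinases cut these proteins, and tissue inhibitors of metalloproteinases (TIMPs) bind the enzymes and block them. In the colon the matrix lies in the lamina propria beneath the epithelium, around the crypts and vessels, and more densely in the submucosa and muscle layers, of which a scraping can take a varying part.

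The 23 arrays were alike over all genes, with pairwise correlations between 0.982 and 0.997 and array medians between 5.8 and 5.9. Ppara itself was lower in KO heme mice (7.35 to 7.89) than in WT heme mice (8.43 to 8.89), and lower in KO control mice (7.91 to 8.56) than in WT control mice (8.80 to 9.13). It kept a clear signal in KO mice, and whether its probes lie in the disrupted stretch was not tested. The 14 epithelial markers averaged 11.72 to 11.89 in heme-fed KO mice, 11.75 to 11.82 in KO controls, 11.74 to 11.84 in heme-fed WT mice and 11.70 to 11.78 in WT controls. The mean held steady while single markers moved both ways with heme. Krt20, Vil1 and Krt19 rose and Cdh1, Epcam and Muc2 fell in KO mice. In WT mice Krt20 and Vil1 rose and Cdh1 and Epcam fell with all arrays. Called by the rule given below, these were 42.9% of the 14 in KO mice and 28.6% in WT mice, beside 18.4% and 17.9% of all genes. Without WT control replicate 3, an array described next, 2 of the 14 were called higher and 0 lower in WT mice (beside 9.04% and 8.12% of all genes). The same counts came from a fit of the WT arrays alone (beside 7.26% and 6.07%).

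One array stood apart before any comparison. WT control replicate 3 had the lowest log2 signal of its group in 37 of the 39 matrix and fibroblast genes, and the lowest of all 23 arrays in 30 of them, whereas over all genes it was lowest of all arrays in 5.82%. Its 39 genes averaged 6.62, against 7.47 to 7.82 in the other 4 WT control mice. The exceptions were Mmp3 and Mmp7, of which Mmp7 is made by epithelial cells. Decorin (Dcn) was 9.54 in this array, against 11.16 to 11.52 in the other 4, and periostin (Postn) was 8.59, against 10.26 to 10.71. The 13 endothelial markers were low in the same array as well, at 6.21 against 7.14 to 7.36, and so were the 20 fibroblast markers outside the list, at 6.03 against 6.86 to 7.06. Smooth muscle markers, at 8.39 against 8.08 to 9.49, and epithelial markers, at 11.78 against 11.70 to 11.77, were not low there. Whether the mouse or the scraping differed was not tested, and results in WT mice that rest on this array are given with and without it.

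**Figure D1:**
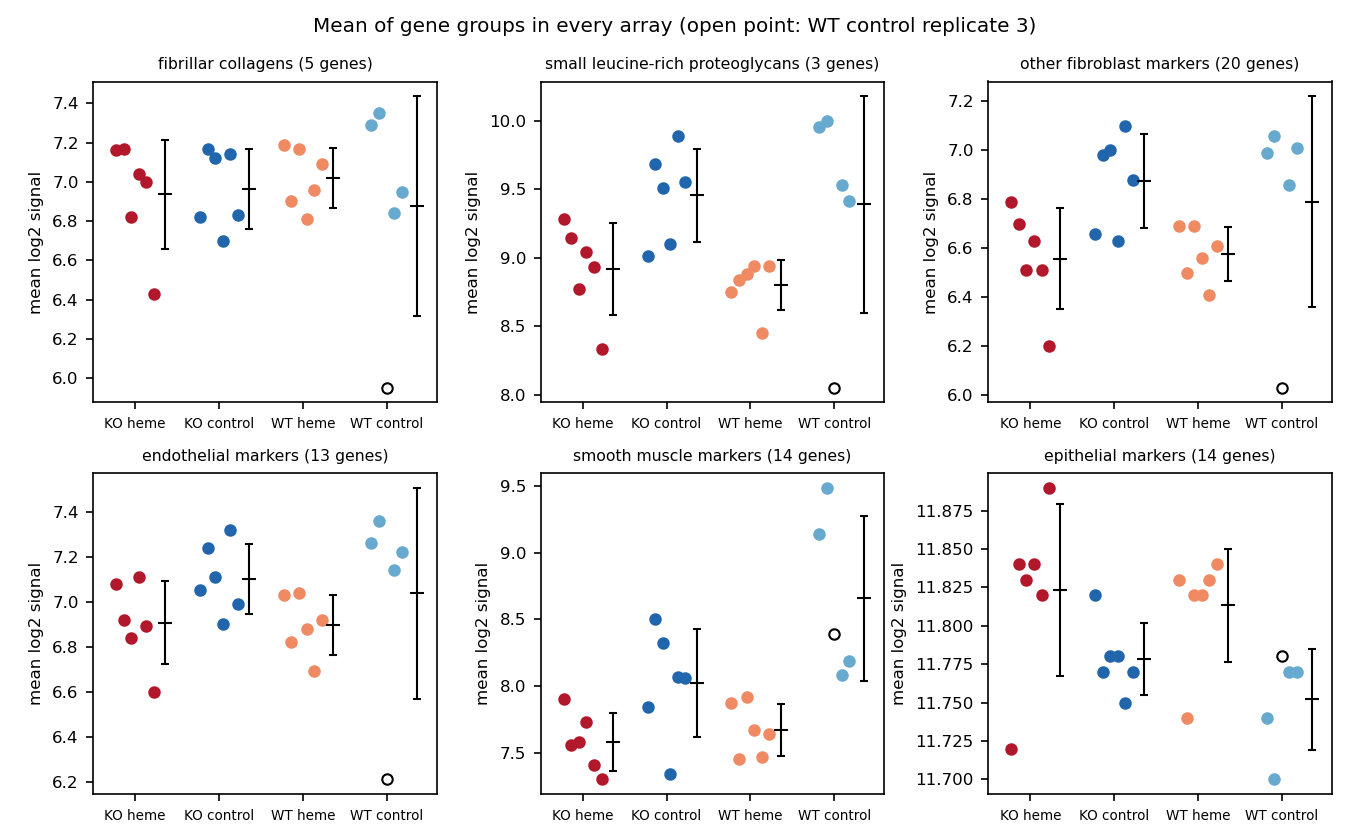
Mean log2 signal of 6 gene groups in each array (y axis, a separate scale per panel), by genotype and diet (x axis); points are mice, the bars at the right of each group are mean ± SD, and the open point is WT control replicate 3. That array lies at 5.95 for fibrillar collagens and 6.21 for endothelial markers, below every other mouse, while its smooth muscle and epithelial means lie within or beside those of the other WT controls.

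The matrix genes were also variable between mice of the same group. The within-group SD of the log2 signal ran from 0.18 (Mmp14) to 0.52 (Lum), with a median of 0.34, and all 39 genes were above the median of all genes, 0.128. Without WT control replicate 3 the median was 0.26 and all 39 remained above the median of all genes, 0.127. In KO heme mice, replicate 6 held the lowest value for 31 of the 39 genes, and replicate 1 the highest for 18. Differences smaller than about this spread could not be resolved with 5 or 6 mice a group.

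The first question was how the heme diet changed these genes. A gene was called when its adjusted p was under 0.01 in limma, a linear model with moderated variances over all genes, and its mean signal was above 20 in a group. In KO mice 4 of the 39 genes were called (10.3%), 2 higher and 2 lower, beside 18.4% of all genes (9.23% higher and 9.2% lower). In WT mice 4 were also called (10.3%), 2 higher and 2 lower, beside 17.9% of all genes (9.6% higher and 8.29% lower). The median log2 fold change of the 39 was −0.08 in KO mice and 0.01 in WT mice, against −0.01 over all genes in each. Timp3 was lower and Timp1 higher in both genotypes, Col14a1 was lower and Mmp9 higher in KO mice, and Thbs1 was lower and Col18a1 higher in WT mice.

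The WT count turned on the single array described above. That array was picked out by its low values in these same genes, and leaving it out raises the WT control mean of nearly all of them. Counts without it are thus not independent of that choice. Without WT control replicate 3, 10 of the 39 genes were called in WT mice (25.6%), all 10 of them lower, beside 8.12% of all genes called lower and 9.04% called higher. The 10 were Timp3, Thbs1, Lum, Postn, Dcn, Fn1, Col14a1, Vim, Timp2 and Thy1, and the median of the 39 was −0.20. The calls of Col18a1 (0.73, adjusted p = 0.014) and Timp1 (0.58, adjusted p = 0.017) were then lost. Since the 4 groups share 1 estimate of the spread, the count in KO mice changed too, to 8, with 6 lower (beside 9.6% of all genes) and 2 higher (beside 9.09%). A fit of the 12 KO arrays alone, in which no WT array enters, called 7 genes, of which Timp3, Col14a1, Dcn, Postn, Timp2 and Vim were lower (beside 8.09% of all genes) and Timp1 was higher (beside 8.17%). A fit of the 11 WT arrays alone called 3, of which Timp3 and Thbs1 were lower (beside 6.07%) and Col18a1 was higher (beside 7.26%).

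**Figure D2:**
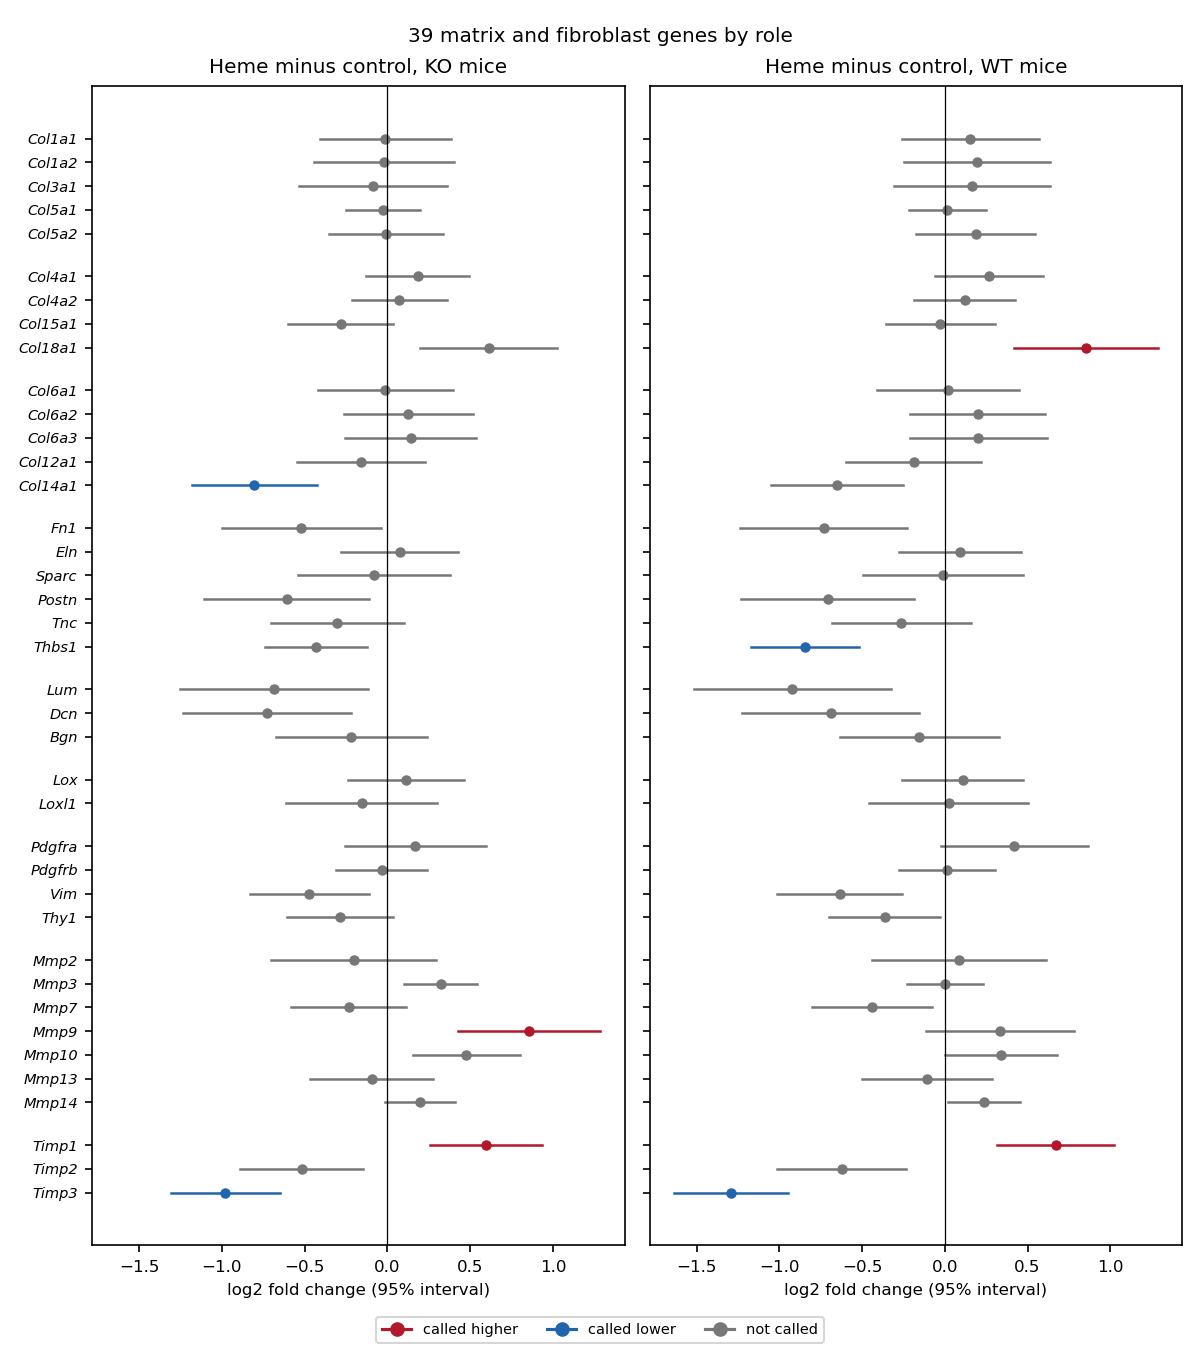
Log2 fold change of heme against control diet for each of the 39 genes (points) with its 95% interval (lines), in KO mice (left) and WT mice (right); genes run down the page by role, from fibrillar collagens to TIMPs, and colours mark called genes. Timp3 lies at −0.98 in KO mice and −1.29 in WT mice, and the 5 fibrillar collagens at the top lie between −0.09 and 0.19.

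Timp3 had the largest change of the 39 genes in both genotypes. It encodes the TIMP that stays bound to the matrix, where it blocks metalloproteinases and the shedding enzymes of the ADAM family. In KO mice its log2 signal ran from 8.29 to 8.87 (median 8.50) on the heme diet, against 9.09 to 9.80 (median 9.59) on the control diet. In WT mice it ran from 7.95 to 8.60 (median 8.41) on the heme diet, against 9.81, 9.82, 8.90, 9.64 and 9.93 in the 5 control mice. No heme-fed mouse reached any control mouse of its genotype, WT control replicate 3 included. Its log2 fold change was −0.98 ± 0.16 (SE) in KO mice, or 0.51-fold, with an adjusted p of 6.8e-05. It was −1.29 ± 0.17 in WT mice, or 0.41-fold, with an adjusted p of 5.5e-06, and −1.47 without WT control replicate 3.

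Timp1, the inducible and freely secreted TIMP, went the other way. In KO mice it read 4.77 to 5.78 (median 5.37) on the heme diet, against 4.50 to 5.00 (median 4.71) on the control diet. In WT mice it read 4.84 to 5.99 (median 5.35) on the heme diet, against 4.65, 4.80, 4.29, 4.79 and 4.75 in the control mice. The WT groups did not overlap, though the lowest heme-fed mouse lay just above the highest control, and the KO groups overlapped by 1 heme-fed mouse. The log2 fold change was 0.60 ± 0.16 in KO mice (adjusted p = 0.0076) and 0.67 ± 0.17 in WT mice (adjusted p = 0.0048). Both calls lay close to the threshold, and leaving out 1 mouse at a time moved the adjusted p past it in several cases, given in the closing paragraphs.

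Timp2, which also helps to activate the gelatinase Mmp2 at the cell surface, was not called in the full fit. It read 7.91 to 8.57 (median 8.34) in KO heme mice, against 8.42 to 9.14 (median 8.89) in KO control mice, a log2 fold change of −0.52 (95% interval −0.89 to −0.15, adjusted p = 0.032). In WT heme mice it read 8.00 to 8.48 (median 8.29), and the WT control values were 7.90 in replicate 3 and 8.89 to 9.33 in the other 4. The WT log2 fold change was −0.62 (adjusted p = 0.015), and without replicate 3 it was −0.87 and called (adjusted p = 9e-05). A further inhibitor that was not among the 40, Timp4, fell as well, with log2 fold changes of −1.34 in KO mice (adjusted p = 1.5e-05) and −1.19 in WT mice (adjusted p = 9.5e-05).

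**Figure D3:**
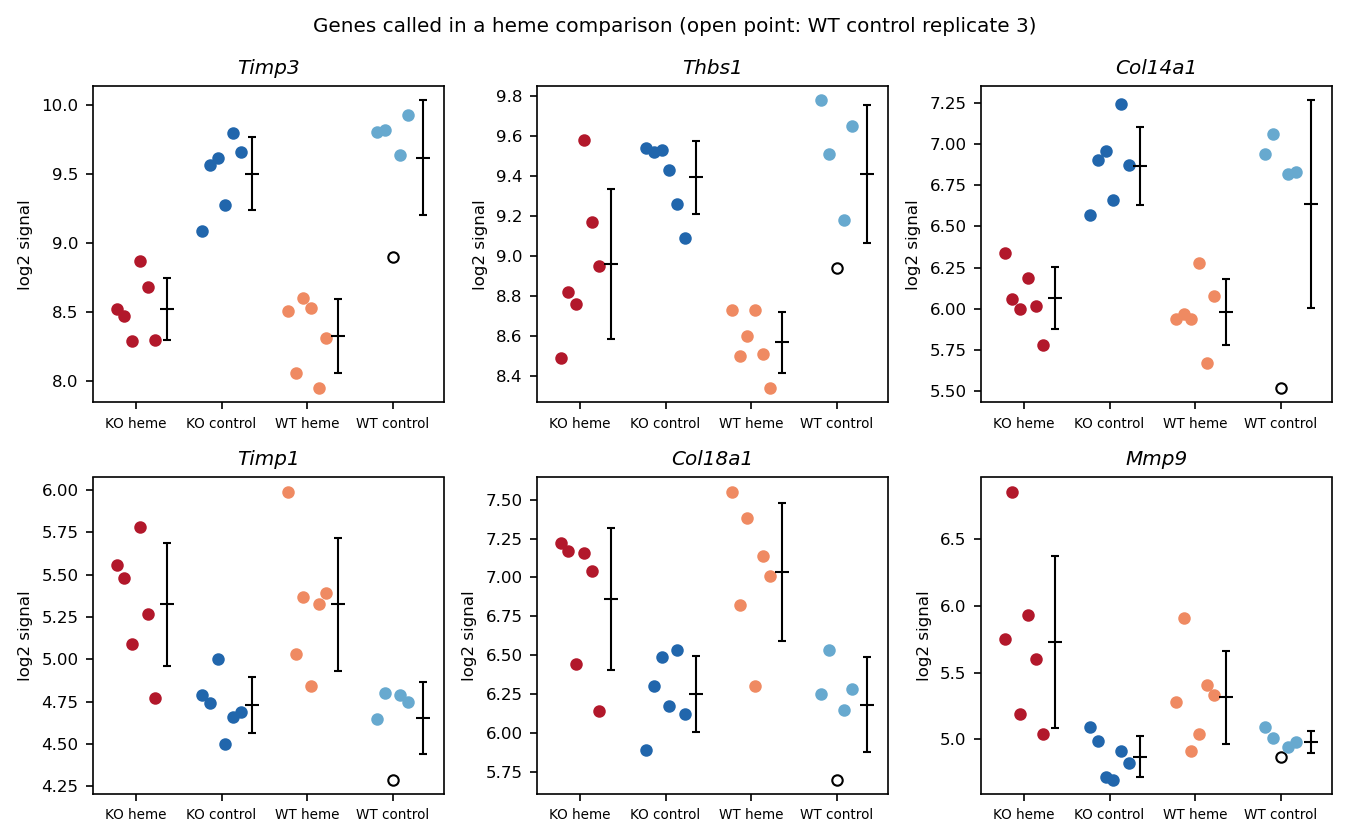
Log2 signal of the 6 genes called in a heme comparison (y axis, a separate scale per panel) in each mouse, by genotype and diet (x axis); the bars at the right of each group are mean ± SD and the open point is WT control replicate 3. Timp3 separates heme-fed from control mice in both genotypes, and Col14a1 does so in KO mice, while in WT mice control replicate 3, at 5.52, lies below the heme-fed values.

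The enzymes that TIMPs block gave 1 call among 7 in KO mice (14.3%, beside 18.4% of all genes) and 0 in WT mice (beside 17.9%). Mmp9, a gelatinase stored by neutrophils and made by macrophages, read 5.04 to 6.85 (median 5.68) in KO heme mice, against 4.70 to 5.09 (median 4.87) in KO control mice. In WT mice it read 4.91 to 5.91 (median 5.30) on the heme diet, against 5.09, 5.01, 4.87, 4.94 and 4.98 on the control diet. Of the KO heme mice only the lowest overlapped the controls, and the WT groups overlapped. For Mmp9 the log2 fold change was 0.86 ± 0.21 in KO mice, or 1.81-fold (adjusted p = 0.0029), and 0.34 ± 0.22 in WT mice (adjusted p = 0.28). The difference between these effects was 0.52 (95% interval −0.10 to 1.14, adjusted p = 0.79) and did not pass the test. Of the 13 lymphocyte and macrophage markers, 1 rose in KO mice (Cd14, 0.63, adjusted p = 0.00015) and 1 fell (Itgam, −0.46, adjusted p = 0.00025), 5 of the 13 were above 0 and the list's median was −0.07. They averaged 6.39 to 7.81 in KO heme mice, against 6.85 to 7.23 in KO control mice. Their part in the Mmp9 result was not tested.

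The metalloproteinase genes Mmp3, Mmp10, Mmp13 and Mmp7 lie near each other on chromosome 9. Mmp3 and Mmp10 encode stromelysins, Mmp13 a collagenase, and Mmp7 matrilysin. Of the 40 genes 25 had an entry in the RefSeq promoter table (build GRCm38.p6, 300 bases an entry), and these 4 were the only ones with an entry that held both TGANTCA, the letters that AP-1 factors bind, and TATAAA, the TATA box. Each motif was read on both strands, and the motifs share no bases. Over all 32851 entries TGANTCA occurred in 7.81%, TATAAA in 13.6% and both in 1.54%. The 100 bases before the start of each gene are shown because these 4 neighbours each have an entry with this layout, with the motifs in capitals, from the plus strand of chromosome 9 at chr9:7445722-7445821 (Mmp3), chr9:7502242-7502341 (Mmp10), chr9:7272414-7272513 (Mmp13) and chr9:7691990-7692089 (Mmp7). Mmp7 has a second entry, whose last 100 bases before the start lie at chr9:7692241-7692340, and that entry held neither motif:
Mmp3: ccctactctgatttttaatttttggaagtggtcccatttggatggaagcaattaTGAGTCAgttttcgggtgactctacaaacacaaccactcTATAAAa
Mmp10: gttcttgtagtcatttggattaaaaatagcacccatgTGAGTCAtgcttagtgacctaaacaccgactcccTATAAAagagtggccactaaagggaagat
Mmp13: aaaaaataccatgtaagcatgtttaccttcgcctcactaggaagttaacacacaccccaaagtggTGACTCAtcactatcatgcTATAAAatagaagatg
Mmp7: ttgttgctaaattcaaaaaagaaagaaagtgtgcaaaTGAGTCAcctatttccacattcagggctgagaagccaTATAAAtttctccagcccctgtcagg

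The 4 neighbours did not share a response that could be called. Mmp10 read 4.58 to 5.90 (median 5.06) in KO heme mice, against 4.55 to 4.73 (median 4.65) in KO control mice, a log2 fold change of 0.48 (adjusted p = 0.024). WT mice read 4.58 to 5.28 (median 4.72) on the heme diet, against 4.42, 4.55, 4.32, 4.53 and 4.54 on the control diet, a log2 fold change of 0.34 (adjusted p = 0.13). All 6 heme-fed WT mice were above all 5 controls, by a small margin. Mmp3 was dim, with a log2 fold change of 0.32 in KO mice (adjusted p = 0.025) and −0.00 in WT mice. Mmp7 gave −0.24 in KO mice (adjusted p = 0.33) and −0.44 in WT mice (adjusted p = 0.066). Mmp13 gave −0.10 and −0.11 in KO and WT mice, with 1 KO heme mouse at 6.40 and the other 5 between 4.91 and 5.30. The same mouse, replicate 2, also had the highest Mmp9 (6.85) and Mmp10 (5.90) of its group. Mmp2 and Mmp14, a gelatinase and the membrane-type enzyme that activates it, gave −0.20 and 0.20 in KO mice and 0.09 and 0.24 in WT mice, none called.

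The promoters of the 2 called inhibitors held neither motif. Their 100 bases are shown for comparison with the enzymes, from the plus strand of chrX:20870066-20870165 (Timp1) and chr10:86300312-86300411 (Timp3), in lower case throughout since nothing matched:
Timp1: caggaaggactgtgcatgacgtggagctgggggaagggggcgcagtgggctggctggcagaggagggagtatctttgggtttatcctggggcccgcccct
Timp3: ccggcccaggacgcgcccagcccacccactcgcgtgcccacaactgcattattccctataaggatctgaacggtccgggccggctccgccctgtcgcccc

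Among the glycoproteins, Thbs1 was called in WT mice. It encodes thrombospondin-1, which binds cells to the matrix and can activate latent TGF-β. In KO mice it read 8.49 to 9.58 (median 8.89) on the heme diet, against 9.09 to 9.54 (median 9.47) on the control diet. In WT mice it read 8.34 to 8.73 (median 8.55) on the heme diet, against 9.78, 9.51, 8.94, 9.18 and 9.65 on the control diet. The WT groups were apart with replicate 3 included, and the KO groups overlapped through 1 heme-fed mouse at 9.58 and a second at 9.17. The log2 fold change was −0.43 ± 0.15 in KO mice (adjusted p = 0.032) and −0.85 ± 0.16 in WT mice, or 0.56-fold (adjusted p = 0.00029). The difference of 0.41 between the effects was not called (95% interval −0.04 to 0.86, adjusted p = 0.76).

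Fibronectin (Fn1) and periostin (Postn), glycoproteins that tie cells to collagen, were lower on the heme diet without a call in the full fit. Postn read 9.25 to 9.74 (median 9.56) in KO heme mice, against 9.76 to 10.62 (median 10.17) in KO control mice, with no overlap. Its log2 fold change there was −0.61 ± 0.24 (adjusted p = 0.061), and 0.0047 was the adjusted p in the fit of KO arrays alone. In WT heme mice Postn read 9.07 to 9.64, between replicate 3 (8.59) and the other 4 controls (10.26 to 10.71), and the log2 fold change was −0.71 (adjusted p = 0.039), or −1.08 without replicate 3 (adjusted p = 1.5e-05). Fn1 gave −0.52 in KO mice (adjusted p = 0.099) and −0.73 in WT mice (adjusted p = 0.027), or −0.95 without replicate 3 (adjusted p = 0.0034). Tenascin-C (Tnc), SPARC (Sparc) and elastin (Eln) were not called in any of these fits, with log2 fold changes of −0.30, −0.08 and 0.07 in KO mice and −0.26, −0.01 and 0.09 in WT mice.

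The small leucine-rich proteoglycans bind collagen fibrils and set their spacing. Decorin (Dcn) read 10.03 to 10.88 (median 10.44) in KO heme mice, against 10.72 to 11.50 (median 11.30) in KO control mice. In WT heme mice it read 9.82 to 10.60 (median 10.35), against 9.54 in control replicate 3 and 11.16 to 11.52 in the other 4 controls. Apart from that array, every heme-fed WT mouse lay below every WT control, while the KO ranges overlapped. The log2 fold change was −0.73 (adjusted p = 0.028) in KO mice and −0.69 (adjusted p = 0.048) in WT mice, or −1.06 without replicate 3 (adjusted p = 6.5e-05). Lumican (Lum) gave −0.69 in KO mice (adjusted p = 0.064) and −0.92 in WT mice (adjusted p = 0.019), or −1.24 without replicate 3 (adjusted p = 0.00057). Biglycan (Bgn) gave −0.22 in KO mice (95% interval −0.67 to 0.24) and −0.15 in WT mice (−0.63 to 0.33), or −0.47 without replicate 3 (adjusted p = 0.026), with no call.

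The fibrillar collagens, which make the load-bearing fibrils, gave no call in either genotype with the 4 groups alone in the model, and gave some in WT mice with the marker covariates described further on. Col1a1, the α1 chain of type I collagen, read 6.99 to 7.81 (median 7.67) in KO heme mice, against 7.19 to 7.92 (median 7.57) in KO control mice. WT mice read 7.33 to 7.87 (median 7.62) on the heme diet, against 7.98 at the highest and 6.55 at the lowest (replicate 3) on the control diet. The groups overlapped almost wholly. Over Col1a1, Col1a2, Col3a1, Col5a1 and Col5a2 the log2 fold changes ran from −0.09 to −0.01 in KO mice, with 95% intervals within −0.54 to 0.40. They ran from 0.01 to 0.19 in WT mice, with intervals within −0.31 to 0.64. Without replicate 3 the WT values were −0.04 to −0.14 and again not called. The cross-linking enzymes lysyl oxidase (Lox) and Loxl1 gave 0.11 and −0.15 in KO mice and 0.11 and 0.02 in WT mice, also not called.

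Collagens that attach to fibrils or form sheets differed from one another. Col14a1, a collagen that coats fibrils and limits their thickness, read 5.78 to 6.34 (median 6.04) in KO heme mice, against 6.57 to 7.24 (median 6.89) in KO control mice. In WT heme mice it read 5.67 to 6.28 (median 5.96), against 6.94, 7.06, 5.52, 6.82 and 6.83 in WT control mice. The KO groups were apart, and in WT mice replicate 3 was the one control below the heme-fed mice. Col14a1 had a log2 fold change of −0.80 ± 0.18 in KO mice, or 0.57-fold (adjusted p = 0.0019), and −0.65 ± 0.19 in WT mice (adjusted p = 0.013), or −0.93 without replicate 3 (adjusted p = 8.1e-06). Col12a1, the related collagen XII, gave −0.16 in KO mice and −0.19 in WT mice, and the 3 chains of the beaded collagen VI, Col6a1, Col6a2 and Col6a3, gave −0.01 to 0.14 in KO mice and 0.02 to 0.20 in WT mice. None of these 4 was called.

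Col18a1 was the collagen that was higher. It encodes collagen XVIII of epithelial and vascular basement membranes, whose end fragment is endostatin. In KO mice it read 6.14 to 7.22 (median 7.10) on the heme diet, against 5.89 to 6.53 (median 6.24) on the control diet. WT mice read 6.30 to 7.55 (median 7.08) on the heme diet, against 6.25, 6.53, 5.70, 6.15 and 6.28 on the control diet. In KO mice 4 heme-fed mice and in WT mice 5 heme-fed mice were above all controls of their genotype. The log2 fold change was 0.61 ± 0.20 in KO mice (adjusted p = 0.024) and 0.85 ± 0.21 in WT mice, or 1.81-fold (adjusted p = 0.0037), and only the WT value was called, with the loss of that call without replicate 3 given above. The other basement membrane collagens, Col4a1, Col4a2 and Col15a1, gave 0.18, 0.07 and −0.28 in KO mice and 0.27, 0.12 and −0.03 in WT mice, without a call.

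**Figure D4:**
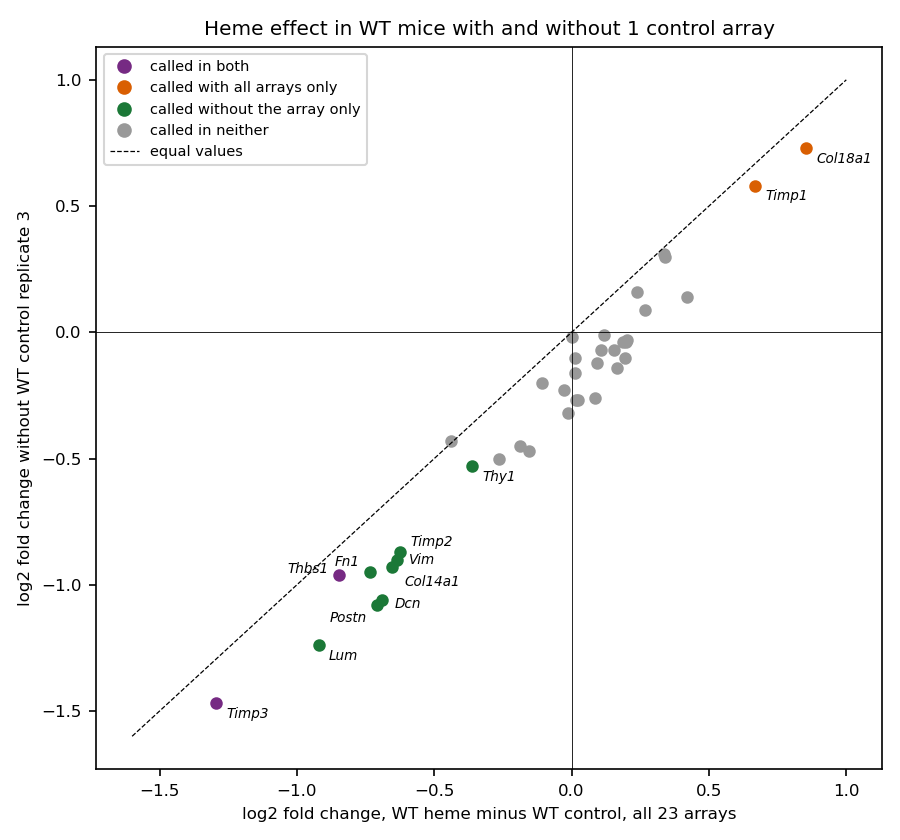
Log2 fold change of heme against control diet in WT mice with all 23 arrays (x axis) and without WT control replicate 3 (y axis); each point is 1 of the 39 genes, the dashed line marks equal values, and colours mark where a gene was called. Nearly all points lie below the line: Lum is at −0.92 and −1.24, Postn at −0.71 and −1.08, and the 2 genes called higher with all arrays, Col18a1 and Timp1, lie at 0.73 and 0.58 without it.

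Of the fibroblast proteins, vimentin (Vim), the intermediate filament of mesenchymal cells, read 10.26 to 10.74 (median 10.46) in KO heme mice, against 10.66 to 11.20 (median 11.00) in KO control mice. In WT heme mice it read 9.99 to 10.46 (median 10.35), against 9.88 in replicate 3 and 11.09 to 11.36 in the other 4 controls. The heme-fed WT mice were thus below all controls but that one. Vim had a log2 fold change of −0.47 in KO mice (adjusted p = 0.044) and −0.64 in WT mice (adjusted p = 0.011), or −0.90 without replicate 3 (adjusted p = 3.8e-06). Thy1, a surface glycoprotein of fibroblasts, nerve cells and mouse T cells, gave −0.28 in KO mice (adjusted p = 0.19) and −0.36 in WT mice (adjusted p = 0.10), or −0.53 without replicate 3 (adjusted p = 0.0079). Of 11 enteric nerve and glia markers, 3 fell and 1 rose in KO mice, beside 9.2% and 9.23% of all genes. In WT mice 5 of them fell, beside 8.29% of all genes. The part of these markers in the Thy1 values was not tested. The platelet-derived growth factor receptors did not follow: Pdgfra gave 0.17 in KO mice (95% interval −0.26 to 0.59) and 0.42 in WT mice (−0.03 to 0.86), and Pdgfrb gave −0.04 and 0.01.

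The second question was whether genotype changed these genes. On the control diet 0 of the 39 genes were called between KO and WT mice, beside 0.0531% of all genes (0.0159% higher and 0.0372% lower in KO mice). On the heme diet 0 were called, beside 0.234% of all genes (0.133% higher and 0.101% lower). At an unadjusted p under 0.05 the counts were 0 on the control diet, beside 5.74% of all genes, and 1, Thbs1, on the heme diet, beside 12.2%, where it was 0.39 higher in KO mice (95% interval 0.08 to 0.70, adjusted p = 0.26). KO minus WT log2 differences ran from −0.17 (Mmp3) to 0.25 (Mmp2) on the control diet and from −0.18 (Col5a2) to 0.42 (Mmp9) on the heme diet. Between these groups no gene of the 39 was without overlap on either diet, beside 0.478% of all genes fully higher and 0.414% fully lower in KO mice on the control diet, and 0.43% and 0.452% on the heme diet. The difference of the heme effects was called for 0 of the 39 genes, beside 0.0106% of all genes, and at an unadjusted p under 0.05 for 1, the dim Mmp3 (0.32, adjusted p = 0.73), beside 6.75%. These counts of calls were 0 without WT control replicate 3 as well, although the median difference over the 39 genes was then −0.16 on the control diet, against 0.06 with all arrays. The comparisons share their groups, and 95% intervals of the difference reached from −1.02 to 1.14 over the 39 genes, so that moderate differences between genotypes could not be resolved.

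With all arrays, whole groups were apart for few genes, among the 39 as among all genes. In KO mice 3 genes (Timp3, Col14a1 and Postn) had all heme-fed mice below all controls and 0 had all above, beside 6.62% and 7.3% of all genes. In WT mice Timp3 and Thbs1 were wholly below and Timp1 and Mmp10 wholly above, beside 6.91% and 8.21% of all genes. Without replicate 3, 12 of the 39 were wholly below in WT mice (beside 9.41% of all genes) and 2 wholly above (beside 10%). Since that array was picked out by its low values in these genes, the larger count wholly below is not independent of that choice.

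Further lists of genes with related functions were written from general knowledge. Of 24 further matrix proteins and proteoglycans, 6 fell and 0 rose in KO mice (25% lower, beside 9.2% of all genes), and 9 fell and 0 rose in WT mice (37.5%, beside 8.29%). Tenascin-X (Tnxb) gave −0.88 in KO mice and −1.04 in WT mice, Prelp, a leucine-rich proteoglycan, −0.75 and −0.79, and Sparcl1, a SPARC relative, −0.73 and −0.95. Osteoglycin (Ogn) gave −1.13 in WT mice. The list's median was −0.35 in KO mice and −0.33 in WT mice. Of 21 genes of TGF-β and related signalling, 5 fell and 0 rose in each genotype (23.8%, beside the same 9.2% and 8.29% of all genes), among them the ligands Tgfb2 (−0.44 in KO mice and −0.74 in WT mice) and Pdgfa (−0.60 in both), the target Tgfbi (−0.35 and −0.50) and the inhibitor Smad7 (−0.42 and −0.41). Medians were −0.19 and −0.23. Without WT control replicate 3 the matrix proteins that fell numbered 8 in KO mice and 12 in WT mice, and the signalling genes 5 and 7. In that fit 9.6% of all genes were called lower in KO mice and 8.12% in WT mice.

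Among 17 integrin and related matrix receptor genes, 3 rose and 3 fell in KO mice and 1 rose and 2 fell in WT mice. These were 35.3% of the list in KO mice, beside 18.4% of all genes, and 17.6% in WT mice, close to the 17.9% of all genes. Itgb8, whose integrin activates latent TGF-β, gave −1.27 in KO mice and −1.10 in WT mice, and the collagen receptor chain Itga1 gave −0.50 and −0.65. The laminin receptor chain Itga3 gave 0.35 and 0.30, and Itgav, a chain of receptors for fibronectin and vitronectin, gave 0.46 in KO mice. Of 16 further basement membrane genes, 2 rose and 1 fell in KO mice and 1 rose and 2 fell in WT mice, 18.8% in each and close to the share of all genes, with the laminin chain Lamb2 at −0.54 and −0.75 and the epithelial chain Lamb3 at 0.56 in KO mice. Of 16 collagen assembly enzymes, where 6.25% were called in KO mice and 12.5% in WT mice, below the shares of all genes, the lysyl hydroxylase Plod1 fell in both genotypes (−0.43 and −0.40) and P4hb rose in WT mice (0.24). None of 12 elastic fibre genes was called in either genotype with all arrays. Of 21 other metalloproteinases and inhibitors, 1 rose (Adamts9) and 1 fell (Timp4) in KO mice, and 0 rose and 2 fell (Timp4 and Adam15) in WT mice. These were 9.52% of that list in each genotype, below the shares of all genes. Without WT control replicate 3, the calls in WT mice were 1 higher and 6 lower among the receptors, 2 and 3 in the basement membrane, 1 and 2 among the assembly enzymes, 0 and 5 among the elastic fibre genes, and 0 and 3 among the metalloproteinases and inhibitors. In that fit 9.04% of all genes were called higher and 8.12% lower in WT mice.

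Markers of other cell types moved with some of these results. In bulk tissue, fewer cells of a type and less RNA per cell cannot be told apart. Of 14 smooth muscle markers, 1 was called lower in KO mice and 11 in WT mice, also without replicate 3 (7.14% and 78.6%, beside 9.2% and 8.29% of all genes). Their median was −0.50 in KO mice and −1.14 in WT mice, with 0 of the 14 above 0 in either. The difference of heme effects was called for 0 of the 14 (beside 0.0106% of all genes). On the control diet all 14 were lower in KO than in WT mice (median −0.61), with 0 called (beside 0.0531%). Means per mouse were 7.30 to 7.90 in KO heme mice, against 7.34 to 8.50 in KO controls. They were 7.45 to 7.92 in WT heme mice, against 8.08 to 9.49 in WT controls. Of 11 enteric nerve and glia markers, 3 fell and 1 rose in KO mice (27.3% lower, median −0.30) and 5 fell in WT mice (45.5% lower, median −0.47), or 4 in WT mice without replicate 3 (beside 8.12% of all genes). Their means were 4.91 to 5.24 in KO heme mice, against 5.06 to 5.43 in KO controls, and 4.78 to 5.03 in WT heme mice, against 5.08 to 5.88 in WT controls. Of 20 fibroblast markers outside the list, 1 fell in each genotype (5%), Fap, a serine protease of activated fibroblasts, with −0.81 in KO mice and −0.53 in WT mice. The means of the 20 were 6.20 to 6.79 in KO heme mice, against 6.63 to 7.10 in KO controls, and 6.41 to 6.69 in WT heme mice, against 6.03 to 7.06 in WT controls. Without replicate 3, 7 of the 20 fell in KO mice and 6 in WT mice (beside 9.6% and 8.12% of all genes). Of 13 endothelial markers, 1 (Prox1) fell in each genotype (7.69%). Without replicate 3, 3 fell in KO mice and 7 in WT mice (beside the same 9.6% and 8.12%). That array was described above as low in the fibroblast and endothelial markers, so their WT counts without it are not independent of that choice. None of 7 pericyte markers was called with all arrays, and 2 fell in WT mice without replicate 3 (beside 8.12% of all genes). The part of these cell types in the results above was not tested beyond the covariates below.

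Setting each gene against a marker mean of the same array changed which genes were called. When the mean of the endothelial markers entered the model, an analysis added once the data had been seen, 10 of the 39 genes were called in KO mice, 6 higher and 4 lower, beside 8.68% and 9.59% of all genes. In WT mice 18 were called, 9 higher and 9 lower, beside 9.18% and 8.62% of all genes. Timp3 (−0.80 in KO mice and −1.16 in WT mice), Col14a1 (−0.57 and −0.48), Dcn (−0.40 and −0.45) and Timp2 (−0.28 and −0.45) were called lower in both genotypes. Timp1 (0.73 and 0.77), Col18a1 (0.79 and 0.98), Pdgfra (0.43 and 0.61), Col4a1 (0.37 and 0.40) and Mmp14 (0.30 and 0.31) were called higher in both. Of the fibrillar collagens, Col1a2 (0.39), Col3a1 (0.37) and Col5a2 (0.34) were called higher in WT mice. With the smooth muscle mean in its place, 4 genes were called in KO mice, 3 higher and 1 lower, beside 7.68% and 8.04% of all genes, and 7 in WT mice, 6 higher and 1 lower, beside 3.46% and 2.86%. Timp3 was called lower (−0.83 in KO mice and −0.97 in WT mice), and Timp1 (0.73 and 0.96) and Col18a1 (0.80 and 1.27) higher in both genotypes. Mmp9 was called higher in KO mice (0.88), and Col1a1 (0.81), Col4a1 (0.77), Col4a2 (0.64) and Mmp14 (0.52) in WT mice. Several lower values moved close to 0 in WT mice under this covariate, with Dcn at −0.06, Lum at −0.07, Timp2 at −0.06 and Postn at −0.16, and in KO mice they were −0.45, −0.30, −0.26 and −0.36. A covariate that itself differs between the diets also removes part of any diet effect shared with it.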

How the data were processed

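Colon mucosa RNA of 23 mice was hybridised, 100 ng per array, to Affymetrix Mouse Gene ST arrays on a plate. The deposited values are log2 signals per probe set, which the authors obtained with Robust Multi-array Average (RMA; version not given in the sources used here) over all arrays, so that no depth in reads applies and the number of mice limits the precision. The study's methods name custom probe sets, whereas the identifiers in the table are those of the manufacturer, and the probes behind a gene may differ. All columns matched a sample title (0 unmatched).

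Probe sets took their gene from the platform annotation: 21218 of 35556 had 1 symbol (21185 matched to RefSeq, assembly GRCm38.p6), 1881 had several and 12457 had none. Those with 1 symbol gave 18820 genes, by the probe set of highest mean for 1386 genes with several. limma 3.58.1 (R 4.3.3) fitted the 4 groups together with Benjamini-Hochberg adjustment over all genes. Calls needed an adjusted p under 0.01 and a mean linear signal above 20 in a group compared, as in the study's thresholds. The fit was tested on simulated data. Fold changes are differences of mean log2 signals. Further steps used Python 3.11.15, pandas 2.3.3 and matplotlib 3.10.9.

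The 40 genes, the further lists and the tests were chosen with earlier results of these data known. Genes called in a comparison were to be given by group in full (at most the 12 largest changes), the others by ranges and counts, and from further lists up to 4 called genes. Genes outside this rule that are given in full (Timp2, Mmp10, Postn, Dcn, Col1a1 and Vim) were chosen after their values were seen. Alternatives varied the filter, threshold, probe set choice, variance model, array weights, centring, arrays fitted, replicate block, tissue covariates and arrays left out. Promoter sequences are those of RefSeq.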

Additional observations from a re-analysis of the deposited data

Results flagged for a closer look

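Within each group of mice the highest and lowest value of each of the 39 genes was set against the others by Dixon's criterion at the 95% level, and 17 values stood out among 156 gene and group combinations, where chance gives about 1 in 20. The values of a mouse are not independent between genes, and 14 of the 17 were low values of WT control replicate 3. In log2 signal these were Col1a2 6.57 (nearest other control 7.79), Col15a1 6.12 (6.98), Col6a1 6.66 (7.88), Col6a2 6.57 (7.57), Col14a1 5.52 (6.82), Postn 8.59 (10.26) and Dcn 9.54 (11.16). The same held for Bgn 9.39 (10.82), Pdgfra 7.26 (8.52), Pdgfrb 7.41 (8.17), Vim 9.88 (11.09), Thy1 6.20 (6.96), Mmp2 7.29 (8.83) and Timp3 8.90 (9.64). The other 3 were Mmp13 at 6.40 in KO heme replicate 2 (next highest 5.30), Col1a2 at 7.27 in KO heme replicate 6 (next lowest 7.89) and Vim at 9.99 in WT heme replicate 5 (next lowest 10.31).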

How the results depend on the processing

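The count of called genes among the 39 (4 in KO mice and 4 in WT mice) stayed within 1.5 times under no signal filter, a minimum log2 change of 0.5, averaged probe sets, a trended robust variance and centred arrays. The share of all genes called was 15.9% to 18.7% in these, but 5.72% in KO mice and 6.01% in WT mice with the minimum change. At an adjusted p under 0.05 the count was 10 in KO mice and 11 in WT mice (25.6% and 28.2%, beside 27.8% and 27.1% of all genes). With array weights it was 8 and 11 (20.5% and 28.2%, beside 21.4% and 22.3%). With the endothelial covariate it was 10 and 18 (25.6% and 46.2%, beside 18.3% and 17.8%). With the smooth muscle covariate it was 4 and 7 (10.3% and 17.9%, beside 15.7% and 6.32%), the 7 being 6 higher and 1 lower. With only the groups compared it was 7 and 3 (17.9% and 7.69%, beside 16.3% and 13.3%). Leaving out 1 array at a time gave 3 to 8 in KO mice, where the share of all genes ran from 14.7% to 19.2%. Without KO heme replicate 6 it gave 6 (15.4%, beside 17.2% of all genes). It gave 2 to 10 in WT mice, where the share of all genes ran from 13.7% to 19.1%. The count there was 10 without WT control replicate 3 (25.6%, beside 17.2% of all genes). It was 2 (0 higher) without WT heme replicate 1 or 3 (5.13%, beside 14.6% and 15%). The counts between genotypes and for the difference of heme effects were 0 under every alternative run. Timp3 was called in both genotypes under all 34 alternatives. Thbs1 in WT mice lost its call only with the smooth muscle covariate (adjusted p = 0.034), Col14a1 in KO mice only there (0.015), and Mmp9 in KO mice only with the groups compared alone (0.015). Timp1 lost its call under 10 of 34 in KO mice (adjusted p 0.00048 to 0.025) and 6 of 34 in WT mice (0.0004 to 0.017), and Col18a1 in WT mice under 3 of 34 (0.00016 to 0.014). Among genes called under any setting, directions turned for Fn1 (0.13) and Thy1 (0.04) in WT mice with the smooth muscle covariate, and for Mmp2 in WT mice with array weights (−0.01). Leaving out arrays in turn, log2 fold changes in WT mice ran from −0.07 to 0.29 for Col1a1, −0.10 to 0.32 for Col1a2, −0.14 to 0.32 for Col3a1, −0.04 to 0.30 for Col5a2, −0.01 to 0.21 for Col4a2 and −0.26 to 0.21 for Mmp2, each lowest without WT control replicate 3. Of the genes called under no setting, the sign also turned under some alternative for 14 of 25 in KO mice and 15 of 18 in WT mice. Examples in KO mice are Col1a1 (−0.09 to 0.28) and Col5a2 (−0.06 to 0.20), and in WT mice Bgn (−0.47 to 0.34), Tnc (−0.50 to 0.24), Col12a1 (−0.45 to 0.30) and Sparc (−0.32 to 0.63). Except where arrays were left out or fewer entered the fit, the cause was not tested.

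The labels number the mice of each group and do not say whether equal numbers belong together, so no pairing was assumed. Deviations of same-numbered mice correlated with a median r of 0.07 over 33 pairs (−0.27 to 0.29), against 0.00 over 165 other pairs (−0.45 to 0.41). These ranges overlap and cannot settle whether a pairing exists. With the replicate block the count was 3 in KO mice (7.69%, beside 18.6% of all genes), where Timp1 lost its call. It was 4 in WT mice (10.3%, beside 17.2%), and 0 between genotypes and for the difference of heme effects.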
